A study of Mus musculus with 2 samples.

Results

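Rab GTPases are small membrane-bound switches that mark the vesicles and organelles of the cell. The 59 genes described here are all genes of the deposited gene table, which lists 27998, whose symbol is Rab followed by a number, an optional letter and an optional digit. No measured value enters that rule, although it was chosen with earlier results of these data known. The genes were read in islet cells of wild-type C57BL/6J mice, an inbred laboratory strain, that received regular chow (4 mice) or a 60% high-fat diet (HFD, 5 mice) during the 6 weeks that followed weaning. Islets were picked by hand, cultured overnight and dispersed with trypsin, and each diet gave 1 droplet library (10x Genomics 3' v2), so the mice of a diet are pooled and a cell cannot be traced to its mouse. Neither sex nor a further genotype is given in the labels.

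Each Rab protein cycles between a GTP-bound form, which sits on a membrane and recruits effector proteins, and a GDP-bound form that is carried in the cytosol. Exchange factors load GTP, GTPase activators end the cycle, and prenylation attaches the lipid anchor. In endocrine cells the Rab3 and Rab27 proteins are known for docking hormone granules at the plasma membrane. Rab5, Rab11 and Rab7 proteins mark early, recycling and late endosomes, and Rab1, Rab2 and Rab6 proteins serve traffic through the endoplasmic reticulum (ER) and Golgi that makes new granules.

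Cells were typed by raw unique molecular identifiers (UMIs): beta where Ins1 and Ins2 made up at least 20% of UMIs, otherwise alpha at 5% Gcg, delta at 1% Sst and PP (pancreatic polypeptide) at 15% Ppy. Endothelial cells and macrophages were taken from the rest by at least 10 UMIs of 8 marker genes each. The chow library held 6509 barcodes and 89292222 UMIs, the HFD library 4539 barcodes and 68544729 UMIs, and 45 barcodes occurred in both. The counts of chow and HFD cells were 4477 and 3010 for beta, 724 and 379 for alpha, 452 and 371 for delta, 200 and 159 for PP, 178 and 126 for endothelial cells and 54 and 71 for macrophages. In the chow library 26 barcodes lay just above the beta threshold (20 to 24% insulin UMIs) and 30 just below it (16 to 20%). In the HFD library 35 lay just above it and 19 just below. Barcodes that met more than 1 type, 171 and 131, were left out as likely doublets, and no doublet caller was run. Each type had counts of all of its own marker genes in both libraries. This is no test of the types, because the cells were chosen by genes of these lists. Beta cells of the chow library also had counts of every gene of the alpha, delta, PP, endothelial and macrophage lists. Delta cells also carried the beta marker list at 93482 and 80307 counts per 1000000 UMIs (CPM), against 26286 and 27403 CPM in endothelial cells, and a median of 3.94% and 4.15% Ppy. Of the 9 genes of that list, 8 had counts in delta cells of both libraries. The exception was Mafa, a defining beta cell factor, which also stood at 0 in alpha, PP and endothelial cells and macrophages. Median insulin UMIs (chow and HFD) were 2.18% and 1.81% in delta cells and 2.12% and 2.1% in endothelial cells. Median Ppy in endothelial cells was 0.082% and 0.0621%. Whether the marker counts of other types are foreign RNA or the cells' own was not tested. The part of any foreign RNA in the values of Rab genes was not tested either.

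The promoters of the Rab3 genes are shown because these paralogs were divided unevenly between the hormone cell types, and those of Rab11a and Rab25 because both recycling endosome genes were lower in beta cells of the HFD library. Each run is the 250 bases before the annotated start (RefSeq, build GRCm38.p6), 5' to 3' on the strand of the gene, with capitals on GGGCGG (GC box, either strand) and on TGACGTCA (cAMP response element). The windows are, in order, chr8:70754453-70754702 (plus strand, the more upstream of the starts listed for Rab3a), chr4:108878820-108879069 (plus), chr13:110280207-110280456 (minus), chr9:21918184-21918433 (minus), chr9:64737757-64738006 (minus) and chr3:88548280-88548529 (minus).
Rab3a: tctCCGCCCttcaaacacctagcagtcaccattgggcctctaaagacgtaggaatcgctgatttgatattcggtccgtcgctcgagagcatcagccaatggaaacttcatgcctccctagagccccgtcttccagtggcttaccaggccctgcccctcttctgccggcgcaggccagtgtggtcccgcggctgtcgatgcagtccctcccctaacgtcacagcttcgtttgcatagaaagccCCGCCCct
Rab3b: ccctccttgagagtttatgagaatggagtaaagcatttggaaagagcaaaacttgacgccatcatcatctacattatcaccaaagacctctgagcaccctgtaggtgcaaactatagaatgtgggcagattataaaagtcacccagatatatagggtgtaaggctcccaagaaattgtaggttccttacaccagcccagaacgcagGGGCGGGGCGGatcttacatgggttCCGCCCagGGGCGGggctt
Rab3c: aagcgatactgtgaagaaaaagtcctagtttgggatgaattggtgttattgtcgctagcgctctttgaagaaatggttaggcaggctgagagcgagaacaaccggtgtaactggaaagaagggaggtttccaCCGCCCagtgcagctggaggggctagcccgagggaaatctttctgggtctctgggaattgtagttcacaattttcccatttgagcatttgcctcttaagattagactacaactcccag
Rab3d: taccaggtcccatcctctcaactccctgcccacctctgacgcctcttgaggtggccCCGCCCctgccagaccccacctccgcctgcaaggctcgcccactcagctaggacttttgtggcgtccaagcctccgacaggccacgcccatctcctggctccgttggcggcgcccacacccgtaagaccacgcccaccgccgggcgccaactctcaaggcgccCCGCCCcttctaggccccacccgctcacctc
Rab11a: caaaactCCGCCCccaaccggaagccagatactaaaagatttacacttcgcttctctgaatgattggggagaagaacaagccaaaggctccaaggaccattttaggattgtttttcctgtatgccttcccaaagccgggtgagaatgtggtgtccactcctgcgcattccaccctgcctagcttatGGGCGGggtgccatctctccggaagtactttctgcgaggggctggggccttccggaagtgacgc
Rab25: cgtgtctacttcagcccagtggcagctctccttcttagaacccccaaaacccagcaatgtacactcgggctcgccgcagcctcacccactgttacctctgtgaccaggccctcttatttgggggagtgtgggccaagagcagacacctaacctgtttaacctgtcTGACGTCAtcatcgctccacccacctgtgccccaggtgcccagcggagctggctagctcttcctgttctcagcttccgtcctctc
Of these 6 stretches, 5 held a GC box (4 matches in Rab3b, 2 each in Rab3a, Rab3d and Rab11a, 1 in Rab3c), and the stretch of Rab25 held the cAMP response element and no GC box. The 250 bases before the other listed start of Rab3a, chr8:70754852-70755101 (plus), not printed here, held 0 GC boxes.

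Promoters were listed for 48 of the 59 members, in 60 windows of 300 bases (250 before and 50 after the start). GGGCGG was present in 41 of the 60 Rab windows (68.3%) and in 35.7% of all 32851 windows of the table. TGACGTCA was present in 2 (3.33%, against 1.79% of all), CACGTG in 6 (10.0%, against 7.15%), TAATTA in 1 (1.67%, against 5.29%), TGTTTAC in 2 (3.33%, against 3.65%) and CANNTG, which CACGTG also matches, in 41 (68.3%, against 72.3%). Both strands were searched. The median Rab window held 19.5 CpG and 61.2% G and C, and the median of all windows 7 CpG and 52.7%. These letters describe the windows and say nothing of binding.

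Levels are given as normalized CPM, that is CPM after TMM scaling (trimmed mean of M values) across the 12 sums of 6 types and 2 libraries, each with counting error only. A 3' UMI is counted once per molecule whatever the gene's length, so levels of different genes need no correction for length. Overlapping genes and reads shared by paralogs can still affect a comparison of different genes. Rab RNA was uneven: in beta cells of the chow library 5 members reached 100 normalized CPM, 21 lay between 20 and 100, 32 lay below 20 and 1 was at 0. In beta cells the highest were Rab2a at 244 and 195 (chow and HFD), Rab1a at 196 and 169 and Rab7 at 189 and 183. Rab44 had no count in any type, which allows up to 3 counts per sum, and Rab33a had at most 1 count in any sum. Rab30 had 9 counts in beta cells, 4 in endothelial cells and none elsewhere. These 3 genes were too low to be tested between types, and the other 56 were tested.

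**Figure D1:**
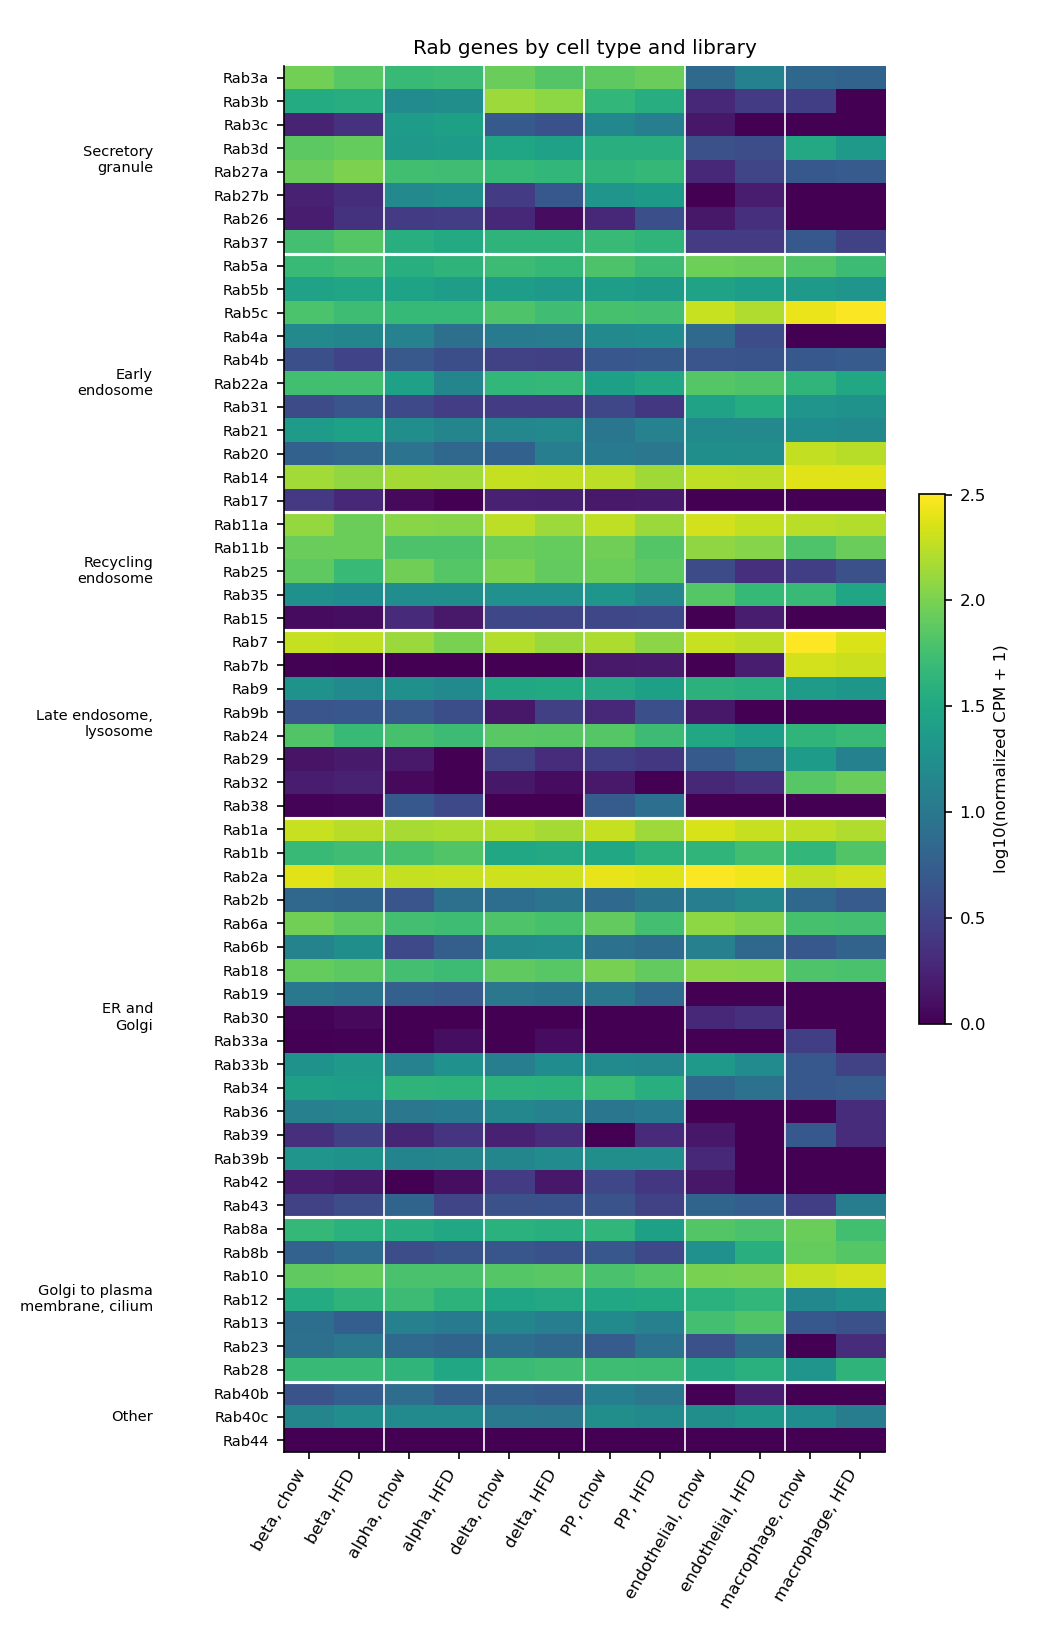
Normalized CPM of the 59 Rab genes (rows, grouped by role) in 6 cell types of the chow and HFD libraries (columns), as colour on a log10(CPM + 1) scale. The ER and Golgi genes Rab1a and Rab2a are high in every column, while Rab3b stands out in delta cells, Rab3c and Rab27b in alpha and PP cells, and Rab7b, Rab20 and Rab32 in macrophages.

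Between types, Rab genes did not move as 1 block. With edgeR's quasi-likelihood test and Benjamini-Hochberg adjustment over 13800 genes, 20 of 56 Rab genes were higher in beta than in alpha cells (23.0% of all genes were) and 6 were lower (15.9% of all). Against delta cells 10 were higher in beta cells (24.0% of all genes) and 11 lower (17.8%), and against PP cells 8 were higher (20%) and 11 lower (13.0%). Against endothelial cells 19 were higher in beta cells (37.3%) and 18 lower (26.2%), and against macrophages 20 were higher (32.0%) and 14 lower (21.5%). Between alpha and delta cells 7 were higher in alpha (11.7%) and 9 in delta cells (14.1%). Most of these shares lie near those of all genes. The median Rab log2 difference was 0.38 for beta minus alpha (all genes 0.13), 0.13 for beta minus delta (all genes 0.12), -0.04 for beta minus PP (0.18), 0.04 for beta minus endothelial (0.46), 0.53 for beta minus macrophage (0.71) and -0.16 for alpha minus delta (8.1e-05). With genes at 0 counts placed at their bounds, the Rab medians were 0.10 for delta, -0.07 for endothelial cells and 0.15 for macrophages, each as beta minus that type.

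The split into higher and lower depends on the scaling. The 7 hormone genes took 60.9% and 60.4% of beta UMIs, 28.6% and 30.7% of alpha UMIs and 2.85% and 2.91% of endothelial UMIs, and their part in the shifts between scalings was not tested. On plain CPM the Rab calls were 5 higher and 22 lower for beta minus alpha, 1 and 36 for beta minus delta, 5 and 13 for beta minus PP, 12 and 29 for beta minus endothelial, 15 and 19 for beta minus macrophage and 4 and 23 for alpha minus delta. Plain CPM moved the median of all genes by -0.61, -0.84, -0.15, -1.21, -0.58 and -0.22 in that order. With UMIs of the hormone genes left out of the total, the calls were 28 and 5, 9 and 11, 8 and 11, 20 and 13, 31 and 8, and 4 and 24, and the median of all genes moved by 0.22, -0.02, 0.01, 0.08, 0.71 and -0.23. Calls that were the same under TMM, DESeq2 size factors, plain CPM and the hormone-free total are called scaling-independent here. They numbered 5 higher and 5 lower for beta minus alpha, 1 and 11 for beta minus delta, 5 and 11 for beta minus PP, 12 and 13 for beta minus endothelial, 15 and 8 for beta minus macrophage and 4 and 9 for alpha minus delta. The 2 libraries served as the replicates of a type and differ in diet and mice. A library term took up the mean difference between them. The p-values rest on the spread left after it, pooled over the types, which holds any type-specific effect of diet. They do not measure the spread between mice.

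Among the secretory granule Rabs, the 4 Rab3 paralogs were divided between the hormone cells. Rab3b (ENSMUSG00000003411), a Rab3 form linked to regulated secretion in neurons and endocrine cells, stood at 136 and 117 normalized CPM in delta cells (chow, HFD), 33.7 and 35.5 in beta cells, 43.9 and 35.4 in PP cells and 14.9 and 16.1 in alpha cells. The delta values lay above those of every other type in both libraries. Delta exceeded beta cells by 1.87 on the log2 scale (log2 beta minus delta -1.87, SE 0.15, adjusted p = 5.49e-15), delta exceeded alpha cells by 3.04 (alpha minus delta -3.04, SE 0.18, adjusted p = 5.83e-20), and beta exceeded alpha cells by 1.17 (SE 0.18, adjusted p = 3.51e-07). All of these differences were scaling-independent. After each cell was thinned to 4000 UMIs, 45.4% and 44.2% of delta cells held a Rab3b UMI, 9.05% and 9.73% of beta cells and 5.78% and 7.65% of alpha cells (unthinned 67.9% and 73.0%, 26.7% and 30.5%, 11.5% and 15.8%). Endothelial cells, which lack hormone granules, gave 0% and 0.794% when thinned (0 of 175 chow cells allows up to 1.71%).

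Rab3c (ENSMUSG00000021700), a close paralog, was highest in alpha cells, where Rab3b was lowest among the hormone cells. It stood at 22.8 and 25.6 normalized CPM in alpha cells, 13.8 and 10.8 in PP cells, 4.07 and 3.25 in delta cells and 0.730 and 1.27 in beta cells. The alpha and beta values did not overlap, and the difference was -4.61 (log2 beta minus alpha, SE 0.25, adjusted p = 1.05e-21). Beta cells were also below PP cells (log2 -3.64, SE 0.35, adjusted p = 2.31e-12) and delta cells (log2 -1.89, SE 0.38, adjusted p = 4.72e-05), and alpha exceeded delta cells (log2 2.72, SE 0.30, adjusted p = 1.04e-10). These calls were scaling-independent too. Thinned to 4000 UMIs, 8.32% and 11.1% of alpha cells held a Rab3c UMI, against 0.225% and 0.365% of beta cells and 0.571% and 0% of endothelial cells. With 175 and 126 endothelial cells, these shares cannot tell whether the beta share is background. The 4000 UMIs include those of the hormone genes, 60.9% and 60.4% of beta UMIs and 2.85% and 2.91% of endothelial UMIs. The thinned depth left for other genes therefore differs between types. The unthinned shares were 16.9% and 23.7% in alpha, 0.737% and 1.5% in beta and 0.562% and 0% in endothelial cells, at median depths in chow cells of 8323, 14739 and 7130 UMIs.

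Rab3d (ENSMUSG00000019066), best known from the zymogen granules of exocrine cells, was highest in beta cells at 73.4 and 80.7 normalized CPM. It stood at 36.7 and 36.5 in PP cells, 29.2 and 26.2 in delta cells, 21.2 and 22.6 in alpha cells, 31.0 and 21.1 in macrophages and 3.16 and 2.89 in endothelial cells. The excess of beta cells was 1.82 over alpha (log2, SE 0.16, adjusted p = 1.04e-13), 1.48 over delta (SE 0.16, adjusted p = 5.84e-11) and 1.07 over PP cells (SE 0.17, adjusted p = 1.72e-06), scaling-independent in each case. Acinar marker genes summed to 17.5 and 5.82 plain CPM in beta cells and to 322 and 248 in delta cells, and the part of acinar RNA in the Rab3d values was not tested.

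Rab3a (ENSMUSG00000031840), the Rab3 form most studied in insulin release, was shared more evenly: 92.1 and 70.3 normalized CPM in beta cells, 84.0 and 66.9 in delta cells, 74.4 and 83.7 in PP cells and 48.7 and 50.5 in alpha cells. Beta exceeded alpha cells by 0.71 (log2, SE 0.17, adjusted p = 0.000454), a call that plain CPM did not keep, and alpha cells were below delta cells by a scaling-independent -0.60 (log2 alpha minus delta, SE 0.17, adjusted p = 0.00627). As shares of the summed Rab3 counts in the chow library, beta cells held 46.1% Rab3a, 36.7% Rab3d, 16.8% Rab3b and 0.365% Rab3c. Delta cells held 33.1%, 11.5%, 53.8% and 1.61% of the same genes, alpha cells 45.2%, 19.7%, 13.9% and 21.2%, and PP cells 44.1%, 21.8%, 26.0% and 8.19%. These shares need no scaling between types. In the HFD library Rab3b made up 54.8% of delta Rab3 counts and Rab3c 22.3% of alpha Rab3 counts.

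The Rab27 pair was split in a like way. Rab27a (ENSMUSG00000032202), which docks insulin granules through the effector granuphilin, stood at 84.0 and 100 normalized CPM in beta cells, 54.4 and 53.6 in alpha, 46.8 and 44.4 in delta and 42.0 and 45.7 in PP cells. Beta exceeded PP cells by 1.07 (log2, SE 0.17, adjusted p = 1.74e-06) under all scalings. The excess over delta cells of 1.01 (SE 0.16, adjusted p = 5.53e-07) and over alpha cells of 0.76 (SE 0.15, adjusted p = 5.86e-05) was not called on plain CPM. Rab27b (ENSMUSG00000024511), its paralog in secretory granules of other glands and of platelets, stood at 19.1 and 22.1 in PP cells, 14.0 and 16.1 in alpha cells, 1.81 and 3.90 in delta cells and 0.708 and 1.13 in beta cells. Beta cells were below PP (log2 -4.49, SE 0.31, adjusted p = 1.83e-17), alpha (log2 -4.04, SE 0.27, adjusted p = 2.64e-18) and delta cells (log2 -1.63, SE 0.40, adjusted p = 0.000864), and alpha exceeded delta cells by 2.41 (SE 0.33, adjusted p = 5.11e-08), all scaling-independent. Thinned, 5.36% and 5.80% of alpha cells held a Rab27b UMI and 0.225% and 0.266% of beta cells, against 0 of 175 and 0 of 126 endothelial cells, which allows up to 1.71% and 2.38%. The beta share lies under those limits.

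Rab37 (ENSMUSG00000020732), also placed on insulin granules, stood at 56.3 and 68.9 normalized CPM in beta cells and between 32.6 and 48.2 in the sums of alpha, delta and PP cells. Its excess in beta cells was 0.87 over alpha, 0.60 over delta and 0.47 over PP (log2, SE 0.16, 0.16 and 0.17, adjusted p = 9.58e-06, 0.0015 and 0.0295), and none of these was scaling-independent. Rab26 (ENSMUSG00000079657), which acts in granule maturation, was low everywhere, at 0.553 and 1.33 in beta cells and at most 3.08 in any sum. It passed no test, and its 3' end lies within Traf7 on the same strand (GENCODE vM21), so its counts are uncertain.

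As a list, 5 of the 8 secretory Rabs were higher in beta than in alpha cells and 2 were lower (23.0% and 15.9% of all genes), 3 and 3 against delta cells (24.0% and 17.8%), and 3 and 2 against PP cells (20% and 13.0%). Against endothelial cells 5 were higher and 0 lower (37.3% and 26.2% of all genes), and against macrophages also 5 and 0 (32.0% and 21.5%). On plain CPM the counts in that order were 2 and 3, 1 and 4, 2 and 2, 5 and 0, and 5 and 0. The 8 genes together gave 31 and 38 counts in endothelial cells (0.560% and 0.935% of Rab counts) against 14.8% and 16.8% in beta cells. Endothelial cells lay lower for Rab27a (log2 beta minus endothelial 5.89, SE 0.32, adjusted p = 6.21e-23) and Rab37 (5.13, SE 0.32, adjusted p = 2.87e-20). Macrophages held Rab3b in 1 count, and beta cells exceeded them 50.5-fold with a counting interval of 9.05 to 1994.

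**Figure D2:**
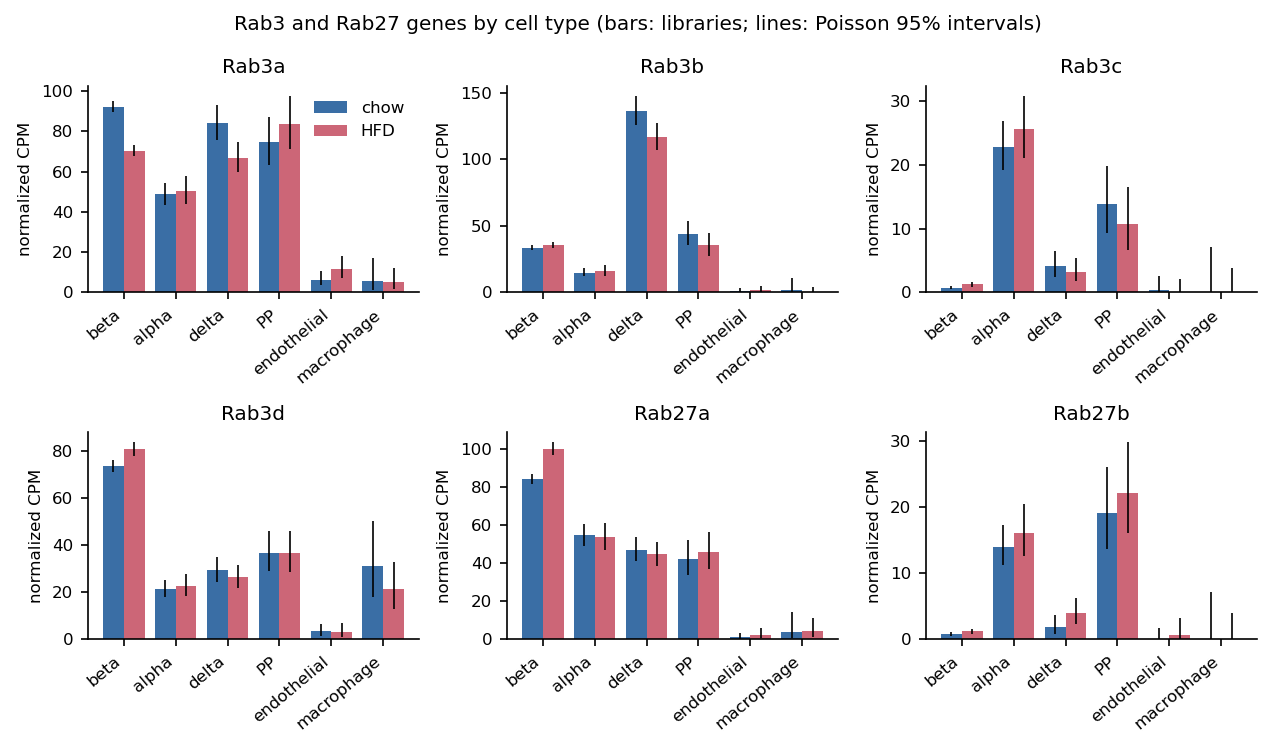
Normalized CPM of Rab3a, Rab3b, Rab3c, Rab3d, Rab27a and Rab27b in 6 cell types; bars are the chow and HFD libraries and lines are Poisson 95% intervals, which cover counting error only. Delta cells lead for Rab3b, beta cells for Rab3d and Rab27a, alpha cells for Rab3c and PP cells for Rab27b, in both libraries.

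Among early endosome Rabs, the general forms were close between hormone cells. Rab14, of endosome to Golgi traffic, was the highest at 142 and 124 normalized CPM in beta cells and 192 and 186 in delta cells (log2 beta minus delta -0.51, SE 0.16, adjusted p = 0.00963, scaling-independent). Rab5a, Rab5b and Rab5c, which drive fusion of early endosomes, stood at 48.9 and 53.5, 26.8 and 29.0, and 60.4 and 52.3 in beta cells. Of the 3, Rab5a alone passed the test against an endocrine type, with beta above alpha cells (log2 0.40, SE 0.16, adjusted p = 0.0435). On plain CPM that direction turned, with 31.7 and 37.3 in beta against 37.1 and 43.2 in alpha cells, and the call was lost. Rab22a, of endosomal recycling, stood at 54.2 and 54.8 in beta cells, 43.9 and 45.1 in delta cells and 25.7 and 12.8 in alpha cells. Both alpha values lay below all beta and delta values, with log2 differences of 1.48 for beta minus alpha (SE 0.18, adjusted p = 1.84e-09), -1.19 for alpha minus delta (SE 0.20, adjusted p = 2.99e-06) and 0.99 for beta minus PP (SE 0.20, adjusted p = 0.000101), all scaling-independent. Rab21, which moves integrins, was higher in beta cells (23.1 and 26.0) than in PP cells (8.59 and 11.8; log2 1.27, SE 0.24, adjusted p = 2.84e-05, scaling-independent) and delta cells (13.4 and 13.9; log2 0.85, SE 0.18, adjusted p = 0.000161, not called on plain CPM).

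Rab17, a Rab of polarized epithelial cells, gave 105 counts in beta cells and 1 in alpha cells, a ratio of 13.7 with a counting interval of 2.41 to 547. Rab4a, of fast recycling, stood at 14.1 and 13.0 normalized CPM in beta cells and had no count in macrophages, which makes beta cells at least 6.63-fold higher (3 counts over both libraries taken as the floor). Its 3' end lies within Gm20388 on the same strand, so its counts are uncertain. Rab4b overlaps Gm21983 and Rab43 overlaps Gm45140, also on the same strand. Macrophages led for Rab20, of phagosome maturation, at 186 and 170 against 4.94 and 5.66 in beta cells (log2 beta minus macrophage -5.06, SE 0.20, adjusted p = 1.95e-28), and for Rab5c at 269 and 303 (log2 -2.36, SE 0.17, adjusted p = 2.57e-17). Endothelial cells exceeded beta cells in Rab31, of Golgi to endosome traffic, at 26.6 and 34.2 against 2.74 and 3.59 (log2 beta minus endothelial -3.26, SE 0.25, adjusted p = 7.22e-17) and in Rab5c at 195 and 160 (log2 -1.65, SE 0.17, adjusted p = 8.94e-13). Macrophages also exceeded beta cells in Rab31 (log2 -2.53, SE 0.39, adjusted p = 2.69e-07).

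Of the 5 recycling endosome Rabs, 3 were lower in beta than in delta cells and 0 higher, and 2 were lower than in PP cells (17.8% and 13.0% of all genes were lower). On plain CPM 5 were lower than in delta cells, 3 than in PP cells and 4 than in alpha cells. Of all 56 Rab genes, 36, 13 and 22 were lower on that scale, in the same order. The median of all genes also moved down there, by -0.84, -0.15 and -0.61. Rab11a, the main recycling endosome Rab, stood at 125 and 85.8 normalized CPM in beta cells, 112 and 111 in alpha, 177 and 135 in delta and 180 and 131 in PP cells. Beta cells were below delta (log2 -0.57, SE 0.17, adjusted p = 0.00407) and PP cells (log2 -0.57, SE 0.17, adjusted p = 0.00734), and alpha below delta cells (log2 -0.47, SE 0.17, adjusted p = 0.0325), all scaling-independent. Rab25, the Rab11 relative of epithelia, stood at 74.2 and 47.8 in beta cells, 89.8 and 68.0 in alpha, 97.8 and 78.4 in delta and 85.9 and 72.4 in PP cells. Beta cells were below delta cells (log2 -0.55, SE 0.15, adjusted p = 0.00305, scaling-independent) and below alpha cells (log2 -0.39, SE 0.15, adjusted p = 0.0417), a call not kept with the hormone-free total. Endothelial cells held Rab25 at 2.71 and 1.16. Rab11b, a close relative of Rab11a, stood at 83.6 and 86.6 in beta and 62.5 and 63.1 in alpha cells (log2 0.44, SE 0.16, adjusted p = 0.0269, not called on plain CPM). Rab15, a Rab of endosomal recycling, was rare, with 16 counts in beta cells, 22 in delta and 10 in PP cells, and beta cells were lower than both (log2 -3.52 and -3.55, SE 0.65 and 0.84, adjusted p = 1.30e-05 and 0.000703). Rab35 was higher in endothelial cells (68.6 and 46.3 against 16.9 and 15.3 in beta cells; log2 -1.83, SE 0.18, adjusted p = 1.90e-13).

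Among late endosome and lysosome Rabs, Rab7, which drives fusion with lysosomes, was high in all types, at 189 and 183 normalized CPM in beta, 131 and 97.6 in alpha, 161 and 133 in delta and 157 and 117 in PP cells. Beta exceeded alpha cells by 0.72 (log2, SE 0.17, adjusted p = 0.00039) and PP cells by 0.46 (SE 0.17, adjusted p = 0.0296), neither of them scaling-independent. Rab9, which returns receptors from late endosomes to the Golgi, was lower in beta (17.8 and 14.3) than in delta cells (30.3 and 32.1; log2 -0.97, SE 0.16, adjusted p = 2.02e-06) and PP cells (31.5 and 25.7; log2 -0.83, SE 0.19, adjusted p = 0.000432), and alpha was below delta cells (log2 -0.99, SE 0.19, adjusted p = 3.17e-05), all scaling-independent. Its relative Rab9b had the reverse order against delta cells, at 3.59 and 3.76 in beta, 4.02 and 3.03 in alpha and 0.453 and 1.95 in delta cells (log2 beta minus delta 1.59, SE 0.48, adjusted p = 0.00528; alpha minus delta 1.57, SE 0.55, adjusted p = 0.0272). Those calls were not scaling-independent. Rab24, tied to autophagy, stood between 47.7 and 71.1 in all sums of the 4 hormone types and passed no test among them.

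Rab38, of lysosome-related organelles such as the melanosome, was a gene of alpha and PP cells at low level, at 3.85 and 2.56 and at 4.29 and 7.19 normalized CPM. Beta cells held 7 counts (log2 beta minus alpha -5.04, SE 0.65, adjusted p = 7.37e-09; beta minus PP -5.82, SE 0.72, adjusted p = 5.27e-09). Delta cells held none, so alpha cells were at least 10.0-fold higher. Its relative Rab32 belonged to macrophages, at 69.7 and 84.4 against 0.598 and 0.707 in beta cells (log2 -6.87, SE 0.35, adjusted p = 1.19e-23). Alpha cells held 1 Rab32 count, a beta to alpha ratio of 6.79 with a counting interval of 1.17 to 273. Rab7b, of late endosome to Golgi traffic, was almost a macrophage gene in these libraries: 109 and 187 counts in 54 and 71 macrophages (211 and 197 normalized CPM) and 2 counts in all beta cells, a ratio of 8144 with a counting interval of 2235 to 67557. PP cells also held 2 Rab7b counts, too few for a fold, although the test called it (adjusted p = 0.0423). Rab29, which recruits the kinase LRRK2 to membranes, was higher in macrophages (23.2 and 11.6; log2 beta minus macrophage -5.22, SE 0.62, adjusted p = 2.49e-10), endothelial cells (4.06 and 6.37; log2 -3.54, SE 0.61, adjusted p = 1.21e-06) and delta cells (2.04 and 1.08; log2 -1.83, SE 0.64, adjusted p = 0.017) than in beta cells (0.354 and 0.509).

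The ER and Golgi Rabs included the most abundant members. Rab2a, of traffic between ER and Golgi, ranged from 192 to 261 normalized CPM over the 8 sums of hormone cells, and Rab1a, of ER to Golgi transport, from 137 to 196. Neither passed a test in the 4 contrasts among hormone types. Rab1b stood at 49.1 and 53.5 in beta, 58.9 and 65.7 in alpha and 30.6 and 31.6 in delta cells. Alpha exceeded delta cells by 1.00 (log2, SE 0.17, adjusted p = 4.71e-06, scaling-independent), and beta exceeded delta cells by 0.72 (SE 0.16, adjusted p = 0.000259) and PP cells by 0.58 (SE 0.18, adjusted p = 0.00962), with a log2 difference from delta cells of -0.13 on plain CPM, where the call against PP cells was also lost (log2 0.42). Rab6a, of transport within and from the Golgi, stood at 92.6 and 74.2 in beta, 56.2 and 51.5 in alpha and 63.4 and 58.1 in delta cells (log2 beta minus alpha 0.63, SE 0.16, adjusted p = 0.00117; not called on plain CPM).

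Its neuronal relative Rab6b stood at 12 and 16.7 normalized CPM in beta, 14.0 and 14.9 in delta, 7.63 and 6.68 in PP and 2.57 and 4.66 in alpha cells. The alpha values lay below all of these, with log2 differences of 2.03 for beta minus alpha (SE 0.27, adjusted p = 9.80e-09) and -2.05 for alpha minus delta (SE 0.30, adjusted p = 2.23e-07), and beta exceeded PP cells by 0.98 (SE 0.30, adjusted p = 0.00835), all scaling-independent. Rab34, of Golgi and lysosome positioning, had the other order, at 25.3 and 24.4 in beta cells, 41.0 and 40.5 in alpha, 40.5 and 39.6 in delta and 47.2 and 37.0 in PP cells (log2 -0.71, -0.69 and -0.76 for beta minus each, SE 0.15, 0.15 and 0.17, adjusted p = 0.000126, 0.000229 and 0.00039, scaling-independent). Rab18, of the ER and lipid droplets, was lower in alpha (55.4 and 51.0) than in delta cells (77.0 and 69.3; log2 -0.46, SE 0.17, adjusted p = 0.0328). Rab19, Rab36 and Rab39b, Golgi-associated Rabs, had few or no counts outside the endocrine types. Beta cells exceeded endothelial cells at least 11.2-fold for Rab19 and at least 15.3-fold for Rab36, and 37.0-fold for Rab39b with 2 endothelial counts (counting interval 10.2 to 306). Against macrophages the bounds were at least 4.17-fold for Rab19 and at least 9.17-fold for Rab39b. Rab19 was also lower in alpha than in delta cells (4.82 and 4.19 against 8.83 and 8.45; log2 -0.94, SE 0.31, adjusted p = 0.0179).

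Of the Rabs between the Golgi and the plasma membrane, Rab10 is known for moving the glucose transporter GLUT4 in fat cells. It stood between 59.2 and 80.7 normalized CPM in the 8 hormone cell sums and at 192 and 211 in macrophages (log2 beta minus macrophage -1.35, SE 0.17, adjusted p = 1.48e-09). Rab8a, of post-Golgi and ciliary transport, stood at 45.1 and 38.6 in beta cells, and Rab28, linked to cilia, at 47.8 and 47.0. Rab12, of endosome and autophagy traffic, stood at 33.5 and 41.2 in beta, 50.3 and 40.8 in alpha and 28.7 and 31.2 in delta cells (log2 alpha minus delta 0.62, SE 0.17, adjusted p = 0.00505, not called on plain CPM). Rab28 was lower in alpha than in delta cells (41.9 and 30.3 against 49.8 and 53.1; log2 -0.50, SE 0.18, adjusted p = 0.0326). Rab8b was a minor gene of beta cells (5.11 and 6.42) and higher in endothelial cells (17.6 and 36.5; log2 -2.19, SE 0.24, adjusted p = 1.96e-11) and macrophages (79.4 and 68.6; log2 -3.64, SE 0.25, adjusted p = 2.48e-18). Its excess in beta over delta cells (log2 0.74, SE 0.31, adjusted p = 0.0456) became -0.10 on plain CPM. Rab13, of tight junction traffic, was lowest in beta cells among hormone cells (6.95 and 4.55, against 10.0 to 14.3 in the other 6 sums) and highest in endothelial cells (55.1 and 66.0). Beta cells were below alpha (log2 -0.90, SE 0.21, adjusted p = 0.000535), delta (log2 -1.05, SE 0.22, adjusted p = 7.62e-05), PP (log2 -1.16, SE 0.27, adjusted p = 0.000505) and endothelial cells (log2 -3.39, SE 0.19, adjusted p = 5.22e-22), all scaling-independent. Of the Rab40 genes, which carry a domain of ubiquitin ligases, Rab40b was lower in beta than in PP cells (3.41 and 4.64 against 11 and 8.73; log2 -1.30, SE 0.33, adjusted p = 0.00171) and at least 1.93-fold above macrophages. Rab40c was higher in alpha than in delta cells (14.6 and 14.2 against 9.05 and 8.88; log2 0.69, SE 0.24, adjusted p = 0.0231), a call not kept on plain CPM or with the hormone-free total. For Rab9b, beta cells were at least 1.79-fold above macrophages.

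HFD and chow were compared type by type as the log2 ratio of HFD over chow relative to the median ratio of all genes of that type, for genes with at least 100 counts. A gene counts as past the fold at 0.5 or more in either direction. Each diet has a single library, so the differences have no replicate check and carry no p-value. A difference of diet and a difference of library cannot be told apart. Median UMIs per beta cell were 14739 and 16832 in the chow and HFD libraries, median mitochondrial UMIs 3.08% and 3.31%, median insulin UMIs 52.7% and 52.6%, and the alpha marker list in beta cells stood at 1955 and 1001 plain CPM. The part of these shifts in the ratios was not tested.

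In beta cells 47 of 59 Rab genes had enough counts. Of these 1 was past the fold upward (4.61% of all 11327 genes were) and 6 downward (11.8% of all), a share close to the background in each direction. Their median was -0.07, with 19 above and 28 below the median of all genes. In alpha cells 1 of 35 was past the fold upward (5.22% of all) and 2 downward (5.18%), with a median of 0.01. In delta cells 1 of 33 was higher (4.81%) and 0 lower (2.89%), with a median of -0.04. In PP cells 1 of 25 was higher (9.4%) and 1 lower (5.07%), with a median of -0.20. In endothelial cells 1 of 23 was higher (7.39%) and 1 lower (4.06%), with a median of -0.08, and in macrophages 0 of 12 were higher (9.92%) and 0 lower (7.83%), with a median of -0.03. No Rab gene was past the fold in the same direction in more than 1 type except Rab33b, in alpha and delta cells.

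**Figure D3:**
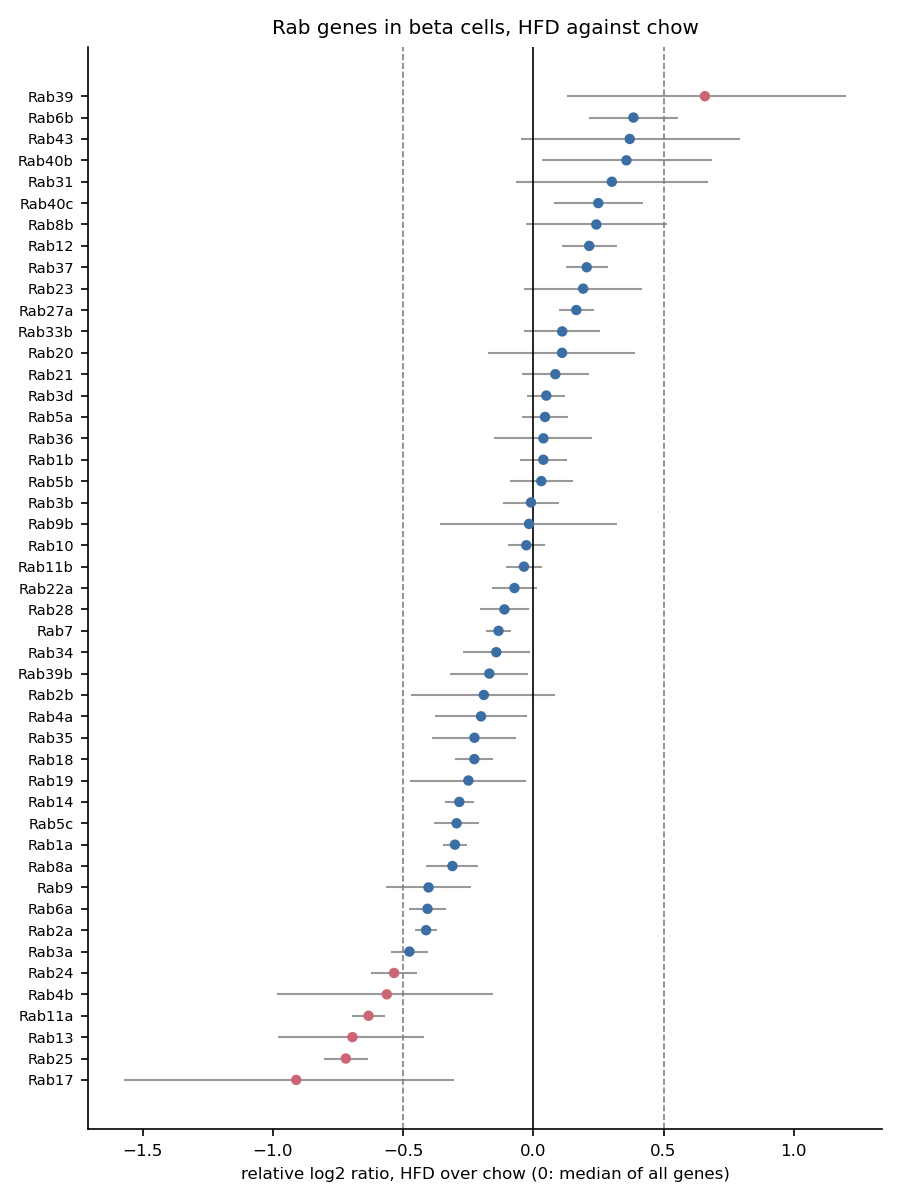
Relative log2 ratio of HFD over chow for the 47 Rab genes with at least 100 counts in beta cells (points, red where past the dashed fold of 0.5), with exact 95% counting intervals (lines). Rab17, Rab25, Rab13, Rab11a, Rab4b and Rab24 lie past the fold on the lower side and Rab39 on the upper side.

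The recycling endosome Rabs lay lowest in beta cells of the HFD library, with a list median of -0.43. Of the 4 with enough counts, 0 lay above and 4 below the median of all genes. In this small list 2 were past the fold on the lower side (11.8% of all genes were). Rab25 stood at 74.2 normalized CPM in chow and 47.8 in HFD beta cells, a relative log2 ratio of -0.72 (95% interval -0.81 to -0.64). Rab11a stood at 125 and 85.8, a ratio of -0.63 (-0.70 to -0.57). Both counting intervals lie wholly past the fold, and both genes stayed past it under all 10 alternatives tried (Rab25 between -0.75 and -0.61, Rab11a between -0.66 and -0.50). Among these, the hormone-free total could not differ from the main setting, because the median of all genes is subtracted. A changed minimum count moved only that median. Changes of the fold itself were not among the 10, nor was plain CPM, where Rab11a stood at 81.3 and 59.9 and Rab25 at 48.2 and 33.4. Rab11b (-0.04) and Rab35 (-0.23) did not pass the fold. The other hormone cells held Rab25 at relative ratios of -0.37 in alpha, -0.28 in delta and -0.15 in PP cells, and Rab11a at 0.01, -0.35 and -0.37, none of them past the fold. The difference between types was not tested. Thinned to 4000 UMIs, 16.9% of chow and 12.5% of HFD beta cells held a Rab25 UMI (49.1% and 39.5% unthinned), and 26.8% and 22.2% a Rab11a UMI (65.2% and 58.4% unthinned). Of endothelial cells, 1.71% and 0.794% held a Rab25 UMI after thinning.

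Other beta cell members past the fold on the lower side were mostly rarer. Rab17 fell from 73 to 32 counts (1.62 and 0.905 normalized CPM), a ratio of -0.91 (-1.57 to -0.30). Rab13 stood at 6.95 and 4.55, a ratio of -0.69 (-0.98 to -0.42). Rab4b, of fast recycling, stood at 3.08 and 2.21, a ratio of -0.56 (-0.99 to -0.16) that reached only -0.43 in 1 of 8 alternatives. Rab24 stood at 65.1 and 47.7, a ratio of -0.53 (-0.62 to -0.45) that reached -0.46 in 1 of 10. All 4 late endosome and lysosome Rabs with enough counts lay below the median, with Rab9 at -0.40, Rab7 at -0.13 and Rab9b at -0.02. The only member past the fold on the upper side was Rab39, a Golgi-associated Rab, at 1.2 and 2.01, a ratio of 0.66 (0.13 to 1.2) from 54 and 71 counts.

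The secretory granule Rabs of beta cells split: 3 of 5 lay above and 2 below the median, none past the fold. Rab3a stood at 92.1 in chow and 70.3 in HFD, a ratio of -0.48 (-0.55 to -0.40), just inside the fold. Rab27a stood at 84.0 and 100, a ratio of 0.16 (0.10 to 0.23), and Rab37 at 56.3 and 68.9, a ratio of 0.20 (0.12 to 0.29). Rab3d lay at 0.05 (-0.02 to 0.12) and Rab3b at -0.01 (-0.12 to 0.10). The share of Rab3a among Rab3 counts of beta cells was 46.1% in chow and 37.4% in HFD, and that of Rab3d 36.7% and 43.0%. Rab27b (32 and 40 counts), Rab3c (33 and 45) and Rab26 (25 and 47) had too few counts in beta cells for a ratio. In alpha cells Rab3c and Rab27b were measurable, at 22.8 and 25.6 and at 14.0 and 16.1, and no secretory Rab passed the fold in alpha, delta or PP cells. Delta cells gave Rab3b a ratio of -0.19 (-0.36 to -0.02) and Rab3a one of -0.29 (-0.51 to -0.07).

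Of the ER and Golgi Rabs in beta cells, 6 of 14 lay above and 8 below the median. The abundant Rab2a (-0.41), Rab6a (-0.41) and Rab1a (-0.30) lay below it, Rab6b (0.38, from 12 to 16.7) above it, and Rab1b (0.04) near it. Early endosome Rabs lay on both sides, 5 above and 6 below, with Rab5a at 0.04, Rab5b at 0.03, Rab5c at -0.29 and Rab14 at -0.28. Between Golgi and plasma membrane, Rab12 lay at 0.21, Rab10 at -0.03, Rab28 at -0.11 and Rab8a at -0.31.

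In alpha cells Rab22a stood at 25.7 normalized CPM in chow and 12.8 in HFD cells, from 160 and 55 counts, a relative ratio of -0.97 (-1.45 to -0.53). It was past the fold in all 7 alternatives, between -1.02 and -0.88, and stood at -0.07 in beta, 0.08 in delta and 0.33 in PP cells. Thinned to 4000 UMIs, 10.4% of chow and 3.43% of HFD alpha cells held a Rab22a UMI (19.9% and 13.2% unthinned). Rab4a stood at 11.7 and 7.45 in alpha cells, a ratio of -0.62 (-1.28 to -0.01). Rab33b, a Golgi Rab that also takes part in autophagy, was past the fold upward in alpha (11.9 and 17.2, ratio 0.56, 0.08 to 1.05) and delta cells (10.6 and 15.6, ratio 0.59, 0.04 to 1.15), and stood at 0.11 in beta cells. In alpha cells it fell inside the fold in 2 of 7 alternatives (lowest 0.47). In PP cells Rab8a stood at 42.9 and 25.2 (ratio -0.67, -1.21 to -0.16) and Rab1b at 29.6 and 39.5 (ratio 0.51, 0.01 to 1.02), the latter inside the fold in 4 of 7 alternatives (lowest 0.38). In endothelial cells Rab8b stood at 17.6 and 36.5 (ratio 1.08, 0.49 to 1.70) and Rab35 at 68.6 and 46.3 (ratio -0.53, -0.94 to -0.13), the latter inside the fold in 2 of 8 alternatives.

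**Figure D4:**
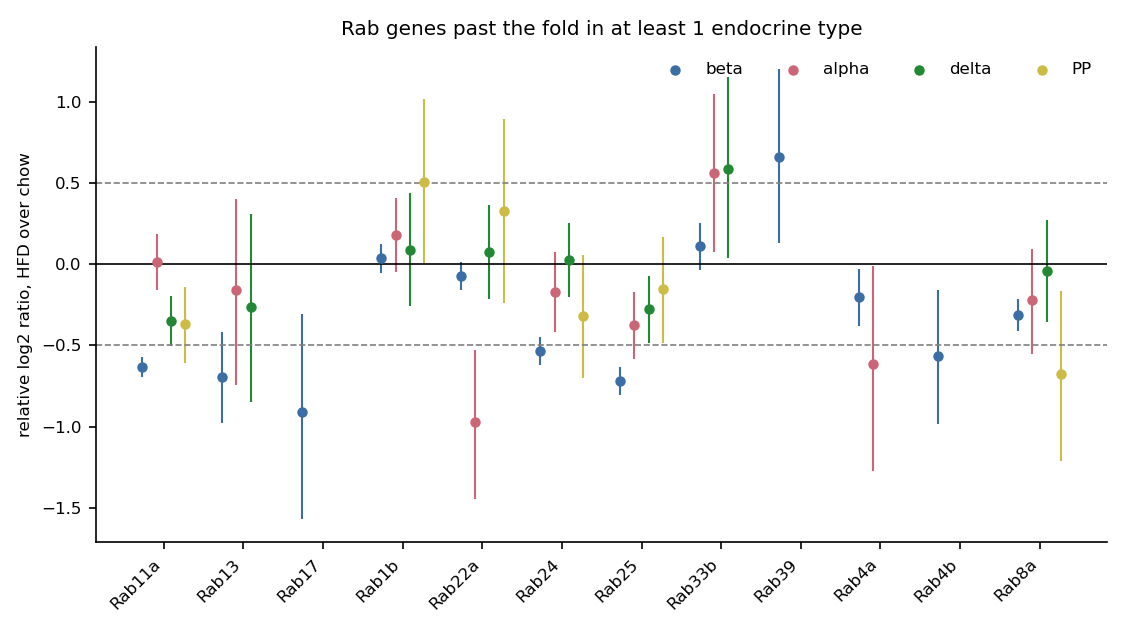
Relative log2 ratio of HFD over chow for the 12 Rab genes past the fold in at least 1 of beta, alpha, delta and PP cells, with exact 95% counting intervals; dashed lines mark the fold of 0.5 and genes under 100 counts in a type have no point. Rab25 lies below 0 in all 4 types, Rab11a in beta, delta and PP cells, and Rab22a past the fold in alpha cells only.

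Genes that load, switch off or read Rab proteins were given as a list of 102, of which 92 had enough counts in beta cells: 63 lay above and 29 below the median of all genes, 4 past the fold upward and 1 downward (4.61% and 11.8% of all genes were), with a median of 0.09. All 8 genes of prenylation and recycling lay below it (median -0.19). Among genes of at least 20 normalized CPM in 1 library, the lowest was Rabac1, the PRA1 receptor of prenylated Rabs, at 447 and 223 normalized CPM in chow and HFD beta cells, a ratio of -1.09 (-1.13 to -1.05). Rabggtb, the beta subunit of the enzyme that attaches the lipid anchor, followed at -0.38, with the Rab3 and Rab27 exchange factor Madd at -0.23 and the Rab7 GTPase activator Tbc1d15 at -0.20. The highest among them were Rabgap1l (0.50, a GTPase activator), Cadps (0.39, granule priming), Rab3gap1 (0.38, a subunit of the Rab3 GTPase activator) and Mical3 (0.33, an effector in vesicle fusion). Before rounding, Rabgap1l lay just inside the fold. The 4 genes past the fold upward, named after their values were seen, were rare: Sytl5 (0.90), Rin2 (0.78), Tbc1d4 (0.58) and Rims2 (0.50). Endosomal effectors lay above the median in 20 of 23 cases (median 0.20). Between types, GTPase activators of Rabs were higher in beta cells for 10 of 17 against alpha, 11 against delta and 11 against PP cells, with 0 lower (all genes 23.0%, 24.0% and 20% higher and 15.9%, 17.8% and 13.0% lower). On plain CPM those counts were 4 higher and 4 lower, 3 and 6, and 8 and 1.

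Overlapping genes limit some values. The 3' ends of Rab3a, Rab3b, Rab5a, Rab7, Rab10, Rab15 and Rab40c lie within genes on the opposite strand (GENCODE vM21), and whether counting used the strand is not given in the sources used here. Paralogs with near-identical stretches could also share reads.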

How the data were processed

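The authors deposited raw UMI counts per gene and barcode, 1 matrix per library, and the submitters' processing notes name Cell Ranger 2.1.0. Build, annotation and barcode selection: not given in the sources used here. Barcodes under 500 genes or over 10% mitochondrial UMIs were removed (122 and 145), counts were summed per type and library, and genes with 10 counts in at least 2 of 12 sums were tested with edgeR 4.0.16 (R 4.3.3, quasi-likelihood, TMM, type plus library, 5 residual degrees of freedom, Benjamini-Hochberg, threshold 0.05). The library term pairs the types of 1 library, which share mice and droplets. SE is the log2 difference over the root of F. Diet ratios had 0.5 counts added. Levels have exact Poisson, ratios exact binomial and shares exact Clopper-Pearson 95% intervals, for counting error only. Both procedures were tested on simulated data. DESeq2 1.42.0 was an alternative. Members, role lists and tests were chosen with earlier results of these data known. Named genes were every secretory Rab, others of 20 CPM in beta or alpha cells, those past the diet fold, and the 6 highest and 6 lowest per contrast.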

Additional observations from a re-analysis of the deposited data

How the results depend on the processing

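Between types, the fit with no replicate block (no library term) called 5 Rab genes higher in beta than in PP cells, and the block moved no other count of calls by over 1.5 times. The DESeq2 Wald test called 4 higher for beta minus delta and 4 for beta minus PP. With cells thinned to 4000 UMIs, 13 were higher for beta minus alpha and 5 higher and 5 lower for beta minus PP, and the log2 difference of Rab7b, beta minus PP, became 1.01. Plain CPM, the hormone-free total and beta barcodes of 40 to 65% insulin were chosen after seeing the data. Plain CPM gave 5 higher and 22 lower for beta minus alpha, 1 and 36 for beta minus delta, 5 higher for beta minus PP, 12 and 29 for beta minus endothelial and 4 and 23 for alpha minus delta, with Rab8b at -0.10 and Rab1b at -0.13 for beta minus delta. The hormone-free total gave 31 and 8 for beta minus macrophage and 4 and 24 for alpha minus delta. The cause was not tested.

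For diet, counts past the fold are small and moved with most settings. With no minimum count, which adds genes of few reads, they were 6 higher in beta, 6 higher and 9 lower in alpha, 6 and 4 in delta, 5 and 9 in PP, 11 and 10 in endothelial cells and 4 and 13 in macrophages (median -0.17). With at least 400 counts, which leaves fewer genes, 0 were higher in beta, alpha, delta, PP and endothelial cells and 0 lower in alpha, PP and endothelial cells, and the macrophage median was 0.15. A fold of log2 0.3 gave 5 higher and 12 lower in beta, 5 lower in alpha, 1 lower in delta, 2 and 7 in PP, 4 and 2 in endothelial cells and 1 and 1 in macrophages. A fold of log2 1 gave 0 higher in beta, alpha, delta and PP cells and 0 lower in beta, alpha, PP and endothelial cells. Thinned cells gave 2 higher in beta, 1 lower in alpha and 0 higher in delta, PP (median -0.39) and endothelial cells. The mean over cells gave 0 higher in alpha, 3 higher in endothelial cells and 1 higher and 2 lower in macrophages. With barcodes of more than 1 type kept, 0 were higher in alpha and PP cells. Stricter hormone thresholds gave 0 higher in PP, 0 lower in endothelial cells and 1 lower in macrophages. TMM scaling gave 0 higher in PP cells, no filter on barcodes 0 lower in endothelial cells, and beta barcodes of 40 to 65% insulin 2 higher. Of the values of single genes over all settings, 858 kept direction and side of the threshold, 71 lost the call and 3 reversed. Those kept include the hormone-free diet ratios, which could not differ from the main setting. No replicate could be left out, because each diet has 1 library. With 1 library per diet, depth limits only the counting error, and pooled mice give no spread between animals.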
